A study of Homo sapiens with 6 samples.

Results

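The plasma membrane and lysosomal carriers of amino acids were followed in 2 kinds of C4-2 cells, a human prostate cancer line that descends from LNCaP. They were taken from the gene counts by symbol: protein-coding genes of the families SLC1A, SLC3A, SLC6A, SLC7A, SLC36A, SLC38A and SLC43A. The rule matched 60 of the 19922 protein-coding genes of the table. SLC7A6OS, which shares a symbol stem with the carriers but encodes none, was set apart, which left 59 genes of carriers and their subunits. C4-2 Enz-R, resistant to the androgen receptor antagonist enzalutamide, gave 3 libraries, and the C4-2 parental line, against which it was set, gave another 3 libraries. The labels give no genetic change for either line. They do not say whether Enz-R is 1 clone, whether its cells were in the drug at harvest, or whether the libraries of a line came from separate cultures, so p-values measure the spread between libraries, which may be technical.

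Cells cannot make all amino acids, and charged or polar ones cross membranes only through carriers. Exchangers such as the SLC7A5 protein, LAT1, bring in leucine and other large neutral amino acids against efflux of glutamine, and sit in the membrane only as a pair with the heavy chain CD98, the product of SLC3A2. Glutamine itself enters through sodium-driven carriers of the SLC1 and SLC38 families. On the lysosome, SLC38A9 and SLC36A1 pass the amino acid supply on to the growth kinase complex mTORC1. In prostate cancer cells, LAT1, the SLC1A5 protein ASCT2 and the SLC43A1 protein LAT3 have been studied as suppliers of leucine and glutamine, and LAT3 is known as an androgen-induced carrier.

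Starts of 8 of these genes are shown first, because they belong to the largest difference in each direction (SLC7A5 and SLC38A5) or hold a motif by which amino acid shortage is read. That motif, TGATGNAA, is the core bound by ATF4 with its partners. RefSeq gave windows of 300 bases, from 250 before to 50 after an annotated start, for 44 of the 59 genes, 66 windows in all, since some genes have several starts. Capitals mark CACGTG in SLC7A5 and SLC38A5, and TGATGNAA on either strand in the other windows. Of the genes with several starts (SLC1A4, SLC1A5, SLC3A2, SLC38A1 and SLC1A3), the window that holds the motif is shown. Each window is written 5′ to 3′ on the strand of its gene.
SLC7A5 (GRCh38.p14, chr16:87869458-87869757, minus strand): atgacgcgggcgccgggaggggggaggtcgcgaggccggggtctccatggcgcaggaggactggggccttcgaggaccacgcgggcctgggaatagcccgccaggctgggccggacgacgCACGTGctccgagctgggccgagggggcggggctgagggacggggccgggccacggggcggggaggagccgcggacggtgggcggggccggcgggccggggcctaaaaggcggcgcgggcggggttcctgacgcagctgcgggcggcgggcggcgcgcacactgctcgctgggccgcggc
SLC38A5 (GRCh38.p14, chrX:48470211-48470510, minus strand): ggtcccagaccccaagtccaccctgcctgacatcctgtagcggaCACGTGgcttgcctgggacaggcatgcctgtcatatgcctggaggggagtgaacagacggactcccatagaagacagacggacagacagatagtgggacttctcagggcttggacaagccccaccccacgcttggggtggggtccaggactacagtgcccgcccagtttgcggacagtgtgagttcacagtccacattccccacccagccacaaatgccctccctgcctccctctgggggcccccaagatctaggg
SLC1A4 (GRCh38.p14, chr2:64989149-64989448, plus strand): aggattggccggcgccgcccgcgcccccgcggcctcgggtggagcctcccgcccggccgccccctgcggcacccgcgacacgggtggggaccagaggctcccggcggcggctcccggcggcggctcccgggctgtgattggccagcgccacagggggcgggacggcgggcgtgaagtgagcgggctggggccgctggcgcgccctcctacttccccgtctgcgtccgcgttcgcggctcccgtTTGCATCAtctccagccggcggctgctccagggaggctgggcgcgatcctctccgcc
SLC1A5 (GRCh38.p14, chr19:46784765-46785064, minus strand): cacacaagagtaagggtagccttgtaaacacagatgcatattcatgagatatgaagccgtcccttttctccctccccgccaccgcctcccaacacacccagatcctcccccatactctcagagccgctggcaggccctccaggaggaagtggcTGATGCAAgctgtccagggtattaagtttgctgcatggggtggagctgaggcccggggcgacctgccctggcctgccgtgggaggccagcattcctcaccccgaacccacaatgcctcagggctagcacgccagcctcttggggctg
SLC7A1 (GRCh38.p14, chr13:29595639-29595938, minus strand): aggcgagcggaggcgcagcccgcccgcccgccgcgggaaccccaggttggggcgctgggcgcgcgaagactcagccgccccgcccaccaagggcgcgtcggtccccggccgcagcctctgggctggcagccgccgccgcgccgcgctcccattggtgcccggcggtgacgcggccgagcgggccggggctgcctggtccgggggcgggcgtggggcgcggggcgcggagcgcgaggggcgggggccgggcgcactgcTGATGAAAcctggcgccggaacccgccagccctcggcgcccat
SLC3A2 (GRCh38.p14, chr11:62881449-62881748, plus strand): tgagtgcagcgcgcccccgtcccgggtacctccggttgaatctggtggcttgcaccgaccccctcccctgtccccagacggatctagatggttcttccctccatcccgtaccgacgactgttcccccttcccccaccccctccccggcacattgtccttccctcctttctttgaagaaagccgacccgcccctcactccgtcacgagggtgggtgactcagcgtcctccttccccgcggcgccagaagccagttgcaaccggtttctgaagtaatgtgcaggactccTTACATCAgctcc
SLC38A1 (GRCh38.p14, chr12:46266467-46266766, minus strand): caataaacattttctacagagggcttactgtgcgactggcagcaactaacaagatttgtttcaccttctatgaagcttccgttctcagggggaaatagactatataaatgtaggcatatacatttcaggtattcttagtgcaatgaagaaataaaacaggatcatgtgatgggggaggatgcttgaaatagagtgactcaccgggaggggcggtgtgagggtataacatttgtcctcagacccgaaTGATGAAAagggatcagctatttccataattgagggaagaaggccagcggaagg
SLC1A3 (GRCh38.p14, chr5:36596338-36596637, plus strand): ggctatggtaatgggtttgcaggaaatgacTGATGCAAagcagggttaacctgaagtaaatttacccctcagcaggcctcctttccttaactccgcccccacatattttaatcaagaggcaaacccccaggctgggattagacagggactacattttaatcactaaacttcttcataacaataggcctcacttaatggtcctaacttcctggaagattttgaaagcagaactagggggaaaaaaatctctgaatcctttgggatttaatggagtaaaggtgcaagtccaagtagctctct

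TGATGNAA was found in 6 of the 66 windows (9.09%), against 1270 of all 35116 windows of the table (3.62%) and 2.02% of the windows of tested genes. In windows of genes that were lower in Enz-R it was found in 5 of 26, in those of genes that were higher in 0 of 5, and in those of genes that did not pass the test in 1 of 18. The carriers are SLC1A4, SLC1A5, SLC7A1, SLC3A2 and SLC38A1, all lower in Enz-R as given below, and SLC1A3, which did not pass. The window of SLC7A5 did not hold these letters. CACGTG, the palindromic letters read by MYC and related factors, was searched after the values had been seen, and stood in 10 of the 66 windows (15.2%), against 7.26% of all windows and 9.31% of those of tested genes. It stood in 6 of 26 windows of lower carriers, 2 of 5 of higher ones and 1 of 18 of those that did not pass. For neither motif was the share by direction computed over all genes. The full palindromic androgen response element, searched on both strands, was found in 0 of the 66 windows and in 16 of all 35116 windows (0.0456%). A match describes letters in a window and is neither a bound site nor a cause.

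Library totals ran from 15673404 to 23351394 counts in Enz-R and from 19400321 to 28247038 in parental cells. Mitochondrially encoded genes took 14.5 to 15.5% of the counts in Enz-R and 8.78 to 11.3% in parental libraries. Markers of prostate luminal epithelium were all measured in both lines (9 of 9), with a summed level of 5434 to 5645 CPM, counts scaled to library totals after edgeR's TMM factors, in Enz-R and 9452 to 10056 CPM in parental cells. Of these, the androgen-induced KLK3 had 2533 CPM in Enz-R and 4768 CPM in parental cells. Markers of leukocytes summed to 2.06 to 2.79 CPM in Enz-R and 1.36 to 2.29 CPM in parental libraries, those of endothelium to 4.71 to 6.02 CPM in Enz-R and 9.64 to 11.96 CPM in parental ones, and those of fibroblasts, mostly COL1A1, to 49.5 to 58.6 CPM in Enz-R and 60.3 to 63.4 CPM in parental ones. DCN, LUM, PECAM1, CDH5 and PTPRC had at most 5 counts in any library. With mitochondrially encoded genes left out before scaling, the carrier calls below numbered the same, 4 higher and 18 lower; the part of the marker genes in the results was not tested. In bulk RNA, a smaller share of cells with a transcript and less of it per cell cannot be told apart.

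Carrier transcripts were lower in Enz-R more often than higher. Of the 59 genes, 33 had enough counts to be tested in edgeR's quasi-likelihood fit, and p-values were adjusted over 19029 genes by Benjamini-Hochberg. At an adjusted p under 0.05, 18 were lower in Enz-R, 4 were higher and 11 did not pass. Of the 4, SLC38A5 and SLC7A7 met the count filter only with their Enz-R counts. Over all tested genes 64.8% passed, 32.3% as lower and 32.4% as higher. Among the 33 carriers the shares were 66.7%, 54.5% and 12.1%. The share that passed was thus close to that of all genes, and its division between the directions was not even. The median log2 fold change, Enz-R over parental, was -0.26 for the 33 carriers and 0.01 for all tested genes. A change of at least 2-fold was reached by 5 lower carriers, against 8.66% of all tested genes, and by 3 higher ones, against 11.0%. In 20 carriers every Enz-R library lay below every parental one (34.7% of all genes), in 6 every Enz-R library lay above (34.2%), and in 7 the groups overlapped; 68.9% of all tested genes had groups that did not overlap.

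**Figure D1:**
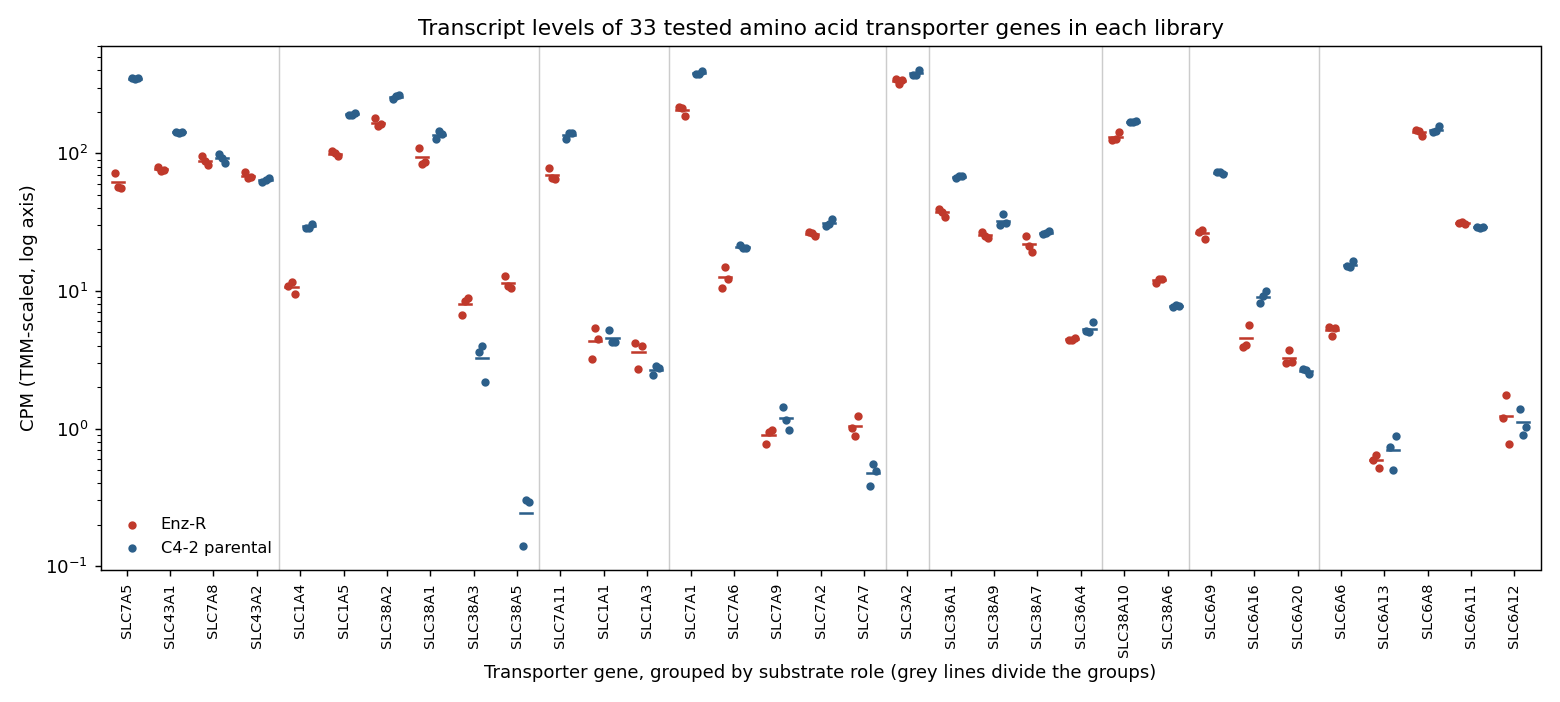
Transcript level of each of the 33 tested carrier genes, in TMM-scaled CPM on a log axis, with 1 point per library, Enz-R in red left of C4-2 parental in blue, and a bar at each group's mean. SLC7A5 stands out on the lower side, at 55.5 to 71.8 CPM in Enz-R against 347 to 352 CPM in parental libraries, and SLC38A5 on the higher side.

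The abundance of carrier transcripts as a whole can be added up only per length of transcript. Summed over the 59 genes, RPKM, which is CPM divided by exon length in kilobases, came to 317, 297 and 295 in the Enz-R libraries and to 483, 486 and 501 in the parental ones, which is 303 ± 12.2 and 489.9 ± 9.63 (SD, n = 3 each). The groups did not overlap. Of the difference, the large neutral carriers held the largest part, with 56.0 ± 3.90 RPKM in Enz-R and 135 ± 1.31 RPKM in parental cells. Glutamine and small neutral carriers summed to 71.1 ± 4.28 RPKM in Enz-R and 116 ± 3.17 RPKM in parental cells, and cationic carriers to 32.3 ± 2.20 RPKM in Enz-R and 57.4 ± 1.60 RPKM in parental cells. Heavy chains differed less, with 64.8 ± 2.90 RPKM in Enz-R and 73.8 ± 3.83 RPKM in parental cells. The SLC6 carriers of taurine, creatine, betaine and GABA were at 31.6 ± 1.58 RPKM in Enz-R and 33.6 ± 1.47 RPKM in parental cells, where the nearest libraries, at 32.6 RPKM in Enz-R and 32.8 RPKM in parental cells, almost met.

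**Figure D2:**
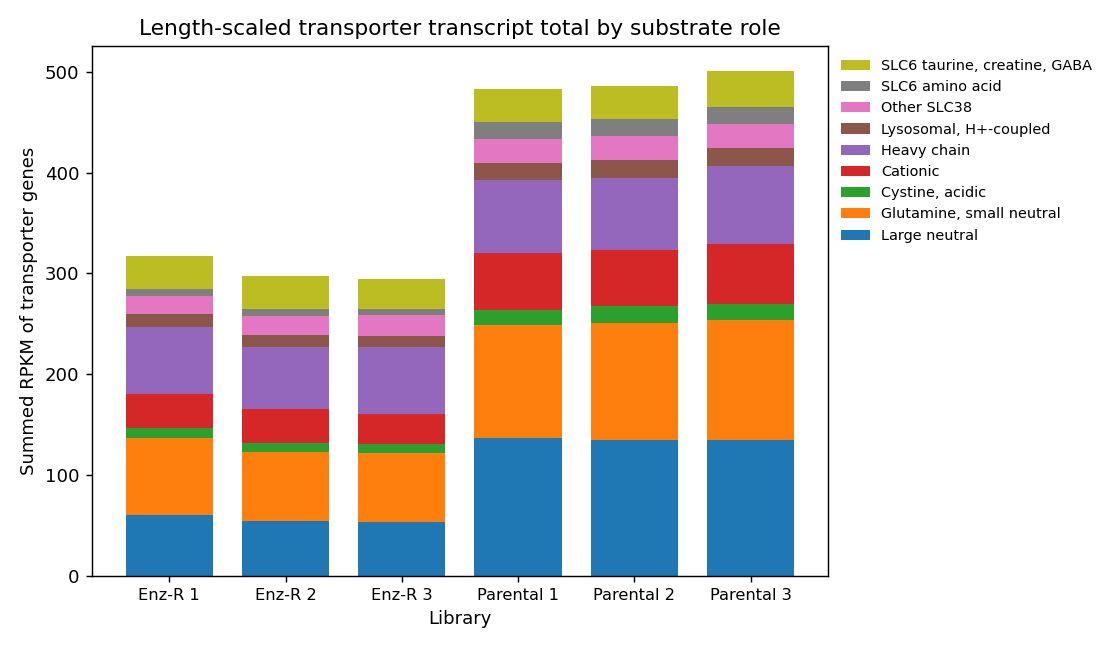
Summed RPKM of carrier genes in each library, Enz-R libraries on the left and parental ones on the right, stacked by substrate role. The whole bar reaches 295 to 317 RPKM in Enz-R and 483 to 501 RPKM in parental libraries, and the bottom segment, the large neutral carriers, differs the most.

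The same scale gives an approximate order of the carriers. Exon length here merges all annotated exons of a gene and can exceed the length of the expressed transcript. The SD over libraries does not hold that error. Ranks, ratios and shares between genes, here and below, are therefore approximate. SLC3A2 was the most abundant in both lines, with 64.8 ± 2.91 RPKM in Enz-R and 73.7 ± 3.84 RPKM in parental cells. SLC7A5 ranked 9 in Enz-R, at 12.9 ± 1.90 RPKM, and 2 in parental cells, at 73.7 ± 0.519 RPKM, where it did not differ from SLC3A2 beyond their spread. In Enz-R the next places after SLC3A2 were those of SLC1A5 at 29.9 ± 1.28 RPKM, SLC7A1 at 26.8 ± 2.12, SLC6A8 at 26.0 ± 1.44 and SLC38A2 at 25.4 ± 1.90, of which the last 3 overlap. In parental cells SLC1A5 at 57.8 ± 1.39 RPKM, SLC7A1 at 50.1 ± 1.47, SLC43A1 at 40.3 ± 0.479 and SLC38A2 at 39.1 ± 1.51 followed, of which the last 2 overlap. The 10 carriers highest in parental cells held 81.3% ± 0.271 of the carrier RPKM in Enz-R and 84.3% ± 0.291 in parental cells.

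Among the large neutral carriers, LAT1 and LAT3 transcripts were lower and those of LAT2 and LAT4 did not pass the test. SLC7A5 (LAT1, ENSG00000103257, GRCh38 chromosome 16, 87830023 to 87869488) had 71.8, 56.9 and 55.5 CPM in Enz-R, against 352, 347 and 349.8 CPM in parental libraries. Every Enz-R library was far below every parental one, a 5.67-fold difference (log2 fold change -2.50 ± 0.09 SE, adjusted p = 3.01e-12). SLC43A1, the leucine and phenylalanine facilitator LAT3, had 79.8, 74.6 and 75.6 CPM in Enz-R and 143, 140.4 and 144 CPM in parental libraries. These groups also stood apart (-0.89 ± 0.06, adjusted p = 4.60e-09). SLC7A8, the broader exchanger LAT2, had 95.1, 88.0 and 82.8 CPM in Enz-R and 98.3, 93.0 and 85.5 CPM in parental libraries, and the groups overlapped (-0.06 ± 0.07, adjusted p = 0.490). SLC43A2, the facilitator LAT4, had 72.6, 65.9 and 67.0 CPM in Enz-R and 61.8, 63.6 and 66.4 CPM in parental libraries, also overlapping (0.10 ± 0.06, adjusted p = 0.171). The mix of the 4 transcripts therefore differed. SLC7A5 made up 23.1% ± 1.70 of their summed RPKM in Enz-R and 54.4% ± 0.227 in parental cells, while SLC43A1 made up 38.9% ± 1.42 in Enz-R and 29.8% ± 0.324 in parental cells. Per length, SLC7A5 was at 0.872 ± 0.0717 of SLC7A8 in Enz-R and at 4.80 ± 0.330 of it in parental cells. SLC43A3, the remaining SLC43 gene and known as a carrier of purine bases, was too low to test, with 8, 10 and 11 counts in Enz-R and 3, 0 and 3 counts in parental libraries.

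The heavy chain that LAT1 needs was lower by a small amount. SLC3A2 (ENSG00000168003, chromosome 11, 62856102 to 62888875) had 346, 318 and 342 CPM in Enz-R and 372, 369 and 405 CPM in parental libraries. The groups did not overlap, and the difference was 1.14-fold lower in Enz-R (-0.19 ± 0.06, adjusted p = 0.0192). It did not pass without Enz-R replicate 2 (-0.15, adjusted p = 0.102) or without parental replicate 3 (-0.15, adjusted p = 0.0862). The ratio of SLC7A5 to SLC3A2 RPKM was 0.227, 0.195 and 0.177 in Enz-R and 1.03, 1.03 and 0.943 in parental libraries. These ratios did not overlap, and a two-sided exact permutation test gave p = 0.1, the smallest that 3 against 3 libraries allow. Summed over the light chains that pair with CD98 (SLC7A5, SLC7A6, SLC7A7, SLC7A8, SLC7A10 and SLC7A11), the ratio to SLC3A2 was 0.571 ± 0.0480 in Enz-R and 1.44 ± 0.0806 in parental cells. SLC7A8 had the largest light chain RPKM in Enz-R, with 40.1% ± 1.08 of their sum against 14.5% ± 0.917 in parental cells. SLC7A5 held 34.9% ± 1.90 in Enz-R against 69.5% ± 0.523 in parental cells. SLC3A1, the heavy chain of the kidney cystine and dibasic carrier, had 9 counts over the Enz-R libraries and 12 over the parental ones.

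**Figure D3:**
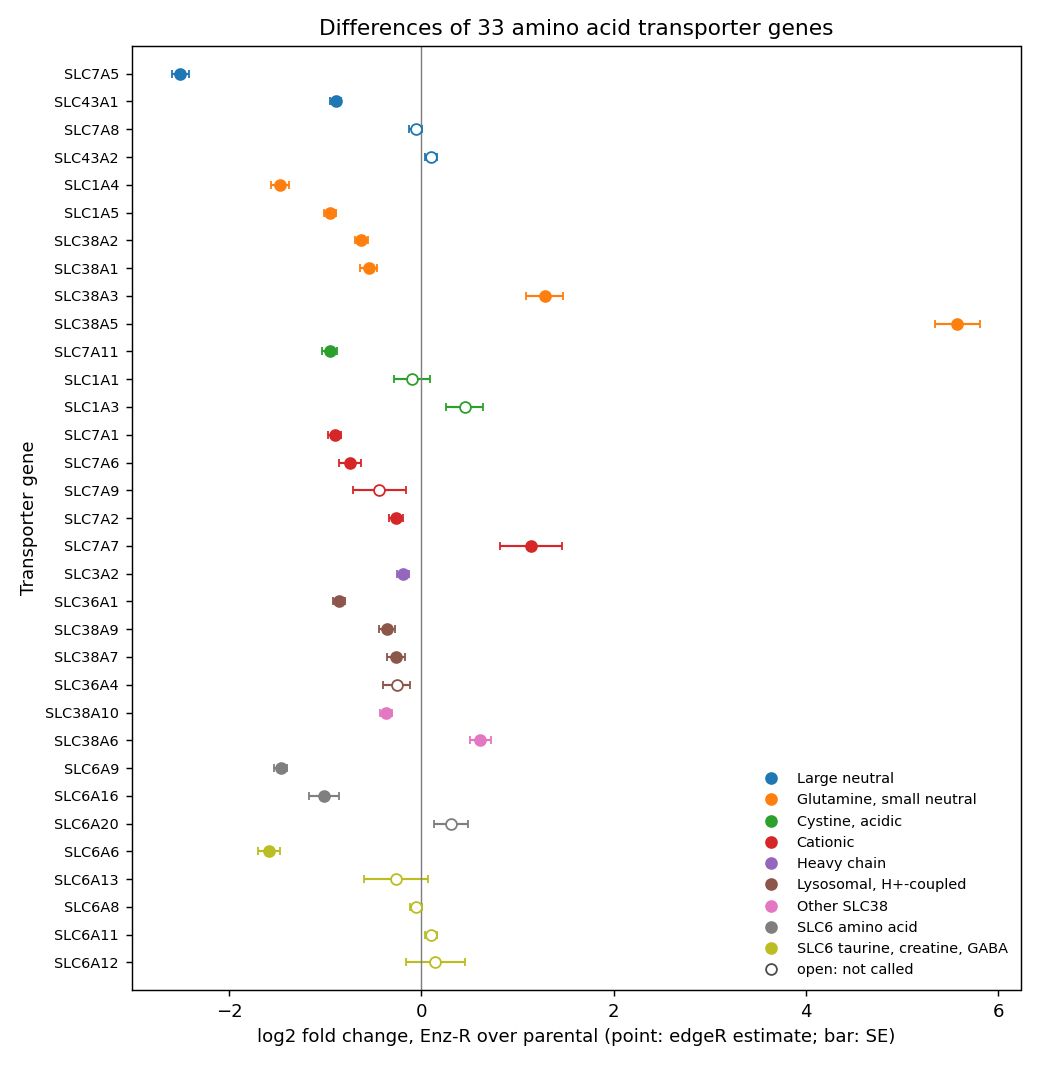
Log2 fold change, Enz-R over parental, of the 33 tested carrier genes from the edgeR fit, with SE as bars, ordered and coloured by substrate role; filled points passed an adjusted p of 0.05 and open points did not. SLC7A5 at -2.50 and SLC38A5 at 5.58 mark the ends, and 18 filled points lie left of 0 and 4 right of it.

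All 6 tested carriers of glutamine and small neutral amino acids passed the test (64.8% of all tested genes did), 4 as lower and 2 as higher. The sodium-dependent exchangers and the system A carriers were lower. SLC1A5 (ASCT2, the main glutamine exchanger of many cancer cells) had 104, 100.1 and 95.2 CPM in Enz-R and 189.6, 190.0 and 198 CPM in parental libraries, without overlap (-0.95 ± 0.06, adjusted p = 3.24e-09). SLC1A4 (ASCT1, which exchanges alanine, serine and cysteine) had 10.8, 11.6 and 9.51 CPM in Enz-R and 28.7, 28.9 and 30.8 CPM in parental libraries, also without overlap (-1.47 ± 0.09, adjusted p = 2.91e-09). SLC38A2, the carrier SNAT2 that is known to be induced by amino acid shortage, had 181, 157 and 164 CPM in Enz-R and 247, 263 and 265 CPM in parental libraries. The groups stood apart (-0.62 ± 0.07, adjusted p = 9.24e-07). Its relative SLC38A1 (SNAT1) had 109, 83.8 and 87.2 CPM in Enz-R and 127, 145 and 138 CPM in parental libraries, again without overlap (-0.55 ± 0.09, adjusted p = 5.77e-05). The 2 genes are neighbours, 88.2 kb apart on chromosome 12.

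The system N carriers of this group, SLC38A3 and SLC38A5, which couple glutamine to sodium and protons and can run in either direction, were higher. SLC38A7, a glutamine carrier given below with those of the lysosome, was lower (-0.26 ± 0.09). SLC38A5 (SNAT5, ENSG00000017483, chromosome X, 48458537 to 48470256) had 279, 184 and 161 counts in Enz-R and 4, 6 and 6 counts in parental libraries. That is 12.7, 10.8 and 10.4 CPM in Enz-R against 0.139, 0.30 and 0.293 CPM in parental libraries, with no overlap (5.58 ± 0.24, adjusted p = 3.48e-11). With so few parental counts the SE can be too small. SLC38A5 met the count filter only through its Enz-R libraries, so it entered the test through the group where it is high. SLC38A3 (SNAT3) had 6.71, 8.47 and 8.93 CPM in Enz-R and 3.62, 3.96 and 2.20 CPM in parental libraries (1.28 ± 0.19, adjusted p = 3.02e-05), and here too every Enz-R library was higher. Their transcripts remained minor members of the group. SLC38A5 held 4.06% ± 0.199 of the RPKM of the 5 glutamine carriers (SLC1A5, SLC38A1, SLC38A2, SLC38A3, SLC38A5) in Enz-R and 0.0543% ± 0.0192 in parental cells. SLC38A3 held 2.94% ± 0.583 in Enz-R and 0.740% ± 0.221 in parental cells. SLC1A5 held 43.1% ± 1.53 in Enz-R and 51.9% ± 1.02 in parental cells, and SLC38A2 held 36.5% ± 0.886 in Enz-R and 35.1% ± 0.425 in parental cells. The sum of the 5 was 69.4 ± 4.25 RPKM in Enz-R and 111 ± 3.09 RPKM in parental cells. SLC7A10, SLC38A4 and SLC38A8 were too low to test, with 20, 3 and 4 counts over the Enz-R libraries and 16, 1 and 2 over the parental ones.

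SLC38A5 lies in a stretch of chromosome X where most genes were higher. Among the 20 nearest tested protein-coding genes, 10 on each side over 1.61 Mb, 16 were higher in Enz-R, 1 was lower and the median log2 fold change was 0.77. Over all tested genes, 32.4% were higher and 32.3% lower. The nearest, FTSJ1, which begins 5.77 kb from the start of SLC38A5, was higher by 0.70 ± 0.07, and WDR13 by 1.05 ± 0.06. The highest of the 20 was CFP at 2.07 ± 0.33, so that SLC38A5, at 5.58, was above all of them. DNA copy number was not analysed here. Around SLC7A5, 4 of 20 neighbours were higher and 8 were lower, with a median of -0.02 and PIEZO1 the lowest at -1.07.

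**Figure D4:**
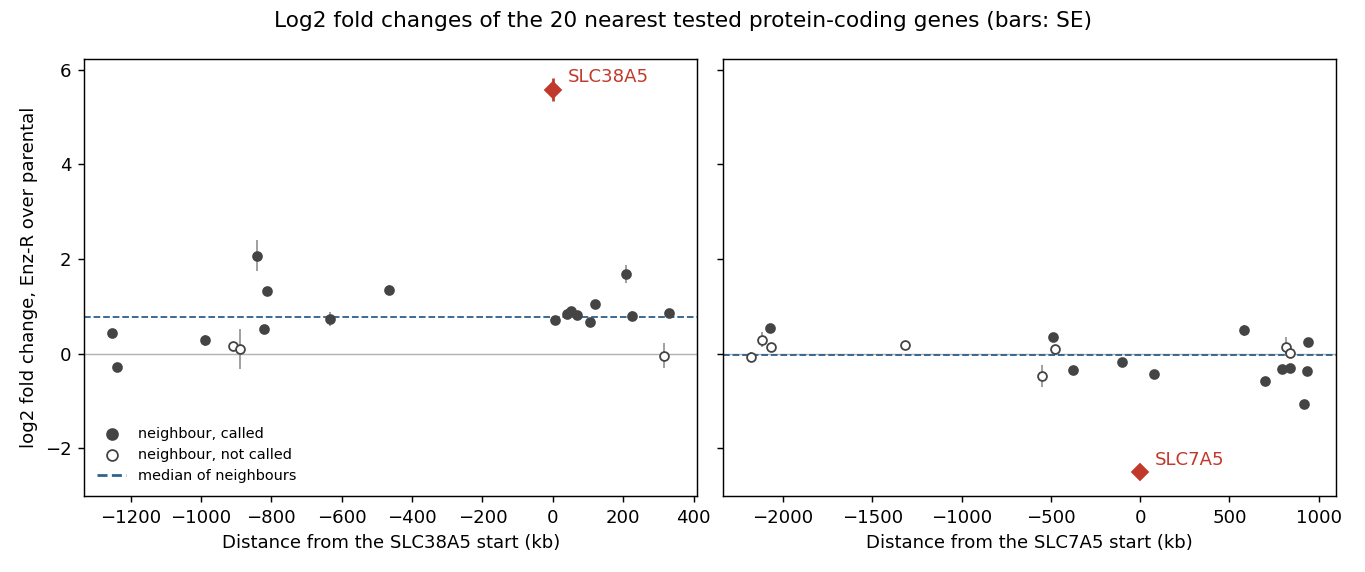
Log2 fold change, Enz-R over parental, of the 20 nearest tested protein-coding genes against distance from the start of SLC38A5 (left) and SLC7A5 (right) in kb; bars are SE, filled points passed the test, and the dashed line is the neighbours' median. SLC38A5 at 5.58 lies above neighbours whose median is 0.77, and SLC7A5 at -2.50 lies below neighbours whose median is -0.02.

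Of the carriers of cystine and acidic amino acids, 1 of 3 tested genes was lower, a share near the 32.3% of all tested genes. SLC7A11 (xCT, which imports cystine for glutathione synthesis in exchange for glutamate) had 77.9, 66.6 and 65.3 CPM in Enz-R and 127, 141 and 140.0 CPM in parental libraries. The groups did not overlap (-0.95 ± 0.07, adjusted p = 3.08e-08). The antisense gene SLC7A11-AS1, which overlaps 9.0% of the SLC7A11 exons, was also lower (-1.80 ± 0.37, adjusted p = 0.000558), with 12, 6 and 3 counts in Enz-R and 35, 36 and 22 counts in parental libraries. Reads of both cannot be told apart, since the counting is not stated to use strand. The glutamate carriers SLC1A1 (-0.10 ± 0.19) and SLC1A3 (0.45 ± 0.20) had overlapping groups and did not pass (adjusted p = 0.659 and 0.0548). SLC1A3, with 4.20, 2.71 and 3.95 CPM in Enz-R and 2.44, 2.85 and 2.73 CPM in parental libraries, passed without Enz-R replicate 2 (0.62, adjusted p = 0.0107). The brain glutamate carrier SLC1A2 had 8, 4 and 5 counts in Enz-R and 6, 8 and 4 counts in parental libraries, and SLC1A6, SLC1A7 and SLC7A13 had at most 4 counts in any library.

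Of the cationic carriers, 3 of 5 tested genes were lower and 1 was higher, against 32.3% and 32.4% of all tested genes. SLC7A1 (CAT1, the common importer of arginine and lysine) had 218, 213 and 187 CPM in Enz-R and 379, 378 and 398 CPM in parental libraries. No library of one line reached the other (-0.90 ± 0.07, adjusted p = 2.15e-08). SLC7A6 and SLC7A7 both pair with CD98 and exchange arginine for neutral amino acids, and they differed in direction. SLC7A6 had 10.6, 14.9 and 12.3 CPM in Enz-R and 21.5, 20.6 and 20.6 CPM in parental libraries (-0.74 ± 0.11, adjusted p = 3.31e-05). SLC7A7 had 1.00, 0.882 and 1.23 CPM in Enz-R and 0.383, 0.551 and 0.488 CPM in parental libraries (1.14 ± 0.32, adjusted p = 0.00550), on 22, 15 and 19 counts in Enz-R and 11, 11 and 10 in parental libraries. Neither pair of groups overlapped. SLC7A7 met the count filter only with its Enz-R counts, since too few parental libraries reached it. SLC7A6OS, on the opposite strand, overlaps 44.4% of the SLC7A6 exons and did not pass (-0.06 ± 0.14, adjusted p = 0.711). Since the counting is not stated to use strand, reads of these genes cannot be told apart either. The arginine carrier SLC7A2 was lower by a small amount (-0.26 ± 0.07, adjusted p = 0.00537), and SLC7A9, the cystine and dibasic carrier of kidney, did not pass (-0.44 ± 0.28, adjusted p = 0.181). SLC7A7 lies 295 kb from SLC7A8 on chromosome 14, which did not pass. SLC7A3, SLC7A4 and SLC7A14 had at most 3 counts in any library.

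On the lysosome and among the proton-coupled carriers, 3 of 4 tested genes were lower (32.3% of all tested genes) and none higher. SLC36A1 (PAT1, a proton-driven exporter of small amino acids from the lysosome) had 39.2, 37.7 and 34.6 CPM in Enz-R and 66.1, 68.1 and 68.1 CPM in parental libraries, with no overlap (-0.85 ± 0.07, adjusted p = 2.78e-08). SLC38A9, the lysosomal arginine sensor of mTORC1, had 26.8, 25.0 and 24.2 CPM in Enz-R and 30.2, 36.3 and 31.0 CPM in parental libraries (-0.35 ± 0.08, adjusted p = 0.00171). SLC38A7, a lysosomal exporter of glutamine and asparagine, had 25.1, 21.4 and 19.2 CPM in Enz-R and 25.7, 26.1 and 27.1 CPM in parental libraries (-0.26 ± 0.09, adjusted p = 0.0228). Their groups did not overlap, but those of SLC38A7 nearly touched. The call for SLC38A7 was lost without Enz-R replicate 2 (adjusted p = 0.0778), without Enz-R replicate 3 (-0.17, adjusted p = 0.115) and without parental replicate 3 (adjusted p = 0.0641). SLC36A4 (PAT4) had 4.43, 4.41 and 4.53 CPM in Enz-R and 5.08, 5.01 and 5.91 CPM in parental libraries, groups that did not overlap but did not pass the test (-0.26 ± 0.14, adjusted p = 0.132). SLC36A2 and SLC36A3, beside SLC36A1 on chromosome 5, had 14 and 1 counts over the Enz-R libraries and 4 and 3 over the parental ones. The less studied SLC38A10 was lower, with 125, 127 and 142 CPM in Enz-R and 169, 168 and 172 CPM in parental libraries (-0.37 ± 0.06, adjusted p = 0.000105). SLC38A6 was higher, with 11.3, 12.3 and 12.2 CPM in Enz-R and 7.66, 7.96 and 7.76 CPM in parental libraries (0.61 ± 0.11, adjusted p = 0.000152). SLC38A11 was too low to test, with 1 count over the Enz-R libraries and 6 over the parental ones. All 8 tested SLC38 genes thus passed, 3 as higher and 5 as lower, and none of their groups overlapped. Of all tested genes, 64.8% passed and 68.9% had groups that did not overlap.

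In the SLC6 family, whose members use sodium and chloride, 3 of 8 tested genes were lower and none higher. The lower share, 37.5%, was near the 32.3% of all tested genes. SLC6A9 (GlyT1, the glycine carrier) had 26.8, 27.9 and 23.9 CPM in Enz-R and 73.0, 73.2 and 71.0 CPM in parental libraries (-1.46 ± 0.07, adjusted p = 1.51e-10). SLC6A6, the taurine carrier, had 5.44, 4.71 and 5.37 CPM in Enz-R and 15.1, 15.0 and 16.5 CPM in parental libraries (-1.58 ± 0.12, adjusted p = 1.62e-08). SLC6A16, whose substrate is not known, had 3.88, 4.06 and 5.69 CPM in Enz-R and 8.15, 9.12 and 10.01 CPM in parental libraries (-1.01 ± 0.16, adjusted p = 4.78e-05). In each of the 3 every Enz-R library was lower. SLC6A8, the creatine carrier and the most abundant SLC6 transcript in both lines, had 149, 146 and 134 CPM in Enz-R and 144, 145 and 157 CPM in parental libraries, overlapping groups that did not pass (-0.06 ± 0.06, adjusted p = 0.462). Its near-identical pseudogene SLC6A10P was lower, with 11, 5 and 4 counts in Enz-R and 79, 35 and 53 counts in parental libraries (-2.69 ± 0.32, adjusted p = 3.34e-06), and how reads shared by the copies were counted is not stated, which leaves both values uncertain. The GABA and betaine carriers SLC6A11 (0.10 ± 0.07), SLC6A12 (0.15 ± 0.31) and SLC6A13 (-0.26 ± 0.34) and the proline carrier SLC6A20 (0.31 ± 0.18) did not pass, with adjusted p from 0.144 to 0.693.

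SLC6 genes that were not tested had few counts or none. The proline carrier of neurons SLC6A7 had 2, 6 and 2 counts in Enz-R and 0 in each parental library. The branched-chain and proline carrier SLC6A15 had 15, 7 and 7 counts in Enz-R and 5, 3 and 7 counts in parental libraries, and SLC6A17 had 0, 1 and 1 counts in Enz-R and 3, 4 and 4 counts in parental libraries. Among the monoamine carriers, the serotonin carrier SLC6A4 had 12, 7 and 7 counts in Enz-R and 7, 6 and 7 counts in parental libraries, the dopamine carrier SLC6A3 had 0 counts over the Enz-R libraries and 3 over the parental ones, and the noradrenaline carrier SLC6A2 had 0 in all 6 libraries. SLC6A18 was also at 0 in all libraries, and SLC6A5, SLC6A14 and SLC6A19 had at most 2 counts in any library.

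Companion genes of amino acid handling were read from the same fit, in which 64.8% of all tested genes passed, 32.3% as lower and 32.4% as higher. Of 25 other amino acid carriers, most of them mitochondrial or lysosomal, 17 were tested, 5 were lower, 1 was higher and 11 did not pass, with a median log2 fold change of -0.01. The mitochondrial ornithine carrier SLC25A15 (-0.89 ± 0.12), the branched-chain carrier SLC25A44 (-0.74 ± 0.07) and the glutamate carrier SLC25A22 (-0.41 ± 0.06) fell, and SFXN3, a sideroflexin, rose (0.38 ± 0.10). Of 33 enzymes that make or break down amino acids, 30 were tested, 17 were lower, 7 were higher and 6 did not pass (median -0.42). Asparagine synthetase ASNS (-1.49 ± 0.12), the mitochondrial arginase ARG2 (-1.34 ± 0.14) and the mitochondrial alanine transaminase GPT2 (-1.31 ± 0.06) fell. The cytosolic alanine transaminase GPT (0.90 ± 0.10), argininosuccinate synthase ASS1 (0.65 ± 0.07) and ornithine aminotransferase OAT (0.56 ± 0.07) rose. The enzymes, like the SLC carriers, thus had more lower than higher members, and the other carriers mostly did not pass.

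The amino acid sensing genes upstream of mTORC1 had the opposite balance, with 17 of 33 higher, 9 lower and 7 not passing (median 0.22). These are 51.5% higher and 27.3% lower, against 32.4% and 32.3% of all tested genes. With a library left out, 14 to 16 were higher and 8 to 9 lower. The list also holds genes of mTORC1 itself, MTOR, which was lower (-0.67 ± 0.06), and RPTOR and MLST8, which did not pass. The lysosomal scaffold LAMTOR4 (0.91 ± 0.06), the GATOR1 subunit NPRL2 (0.83 ± 0.07) and the GTPase RRAGD (0.71 ± 0.11) rose. The GATOR2 subunit MIOS (-1.12 ± 0.07), the folliculin partner FNIP2 (-0.91 ± 0.10) and the leucine sensor SESN2 (-0.67 ± 0.08) fell. Of 15 regulators of carrier transcription and stability, 9 were lower (60.0%), 4 were higher (26.7%) and 2 did not pass (median -0.32). Transcripts of ATF4, the factor of the amino acid response, had 673 ± 37.5 CPM in Enz-R and 798 ± 61.9 CPM in parental cells (-0.25 ± 0.07, adjusted p = 0.00819), a call lost without Enz-R replicate 2 (-0.20, adjusted p = 0.0553). The genes TRIB3 (-1.32 ± 0.07), EIF2AK4, which encodes the stress kinase GCN2 (-0.75 ± 0.06), and KEAP1, which holds back the SLC7A11 activator NRF2 (-0.75 ± 0.07), fell. NFE2L2, the gene of NRF2 itself, was lower as well (-0.65 ± 0.08, adjusted p = 4.12e-06). The arrestin TXNIP (1.39 ± 0.19), the stress factor DDIT3 (1.26 ± 0.08) and the ubiquitin ligase NEDD4 (0.28 ± 0.10, adjusted p = 0.0253) rose, though NEDD4 did not pass without Enz-R replicate 1 or either of parental replicates 2 and 3 (adjusted p = 0.0835, 0.0632 and 0.0823), or with no count filter (adjusted p = 0.0795). All companion values set beside the carriers are descriptions, and no difference between lists was tested.

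**Figure D5:**
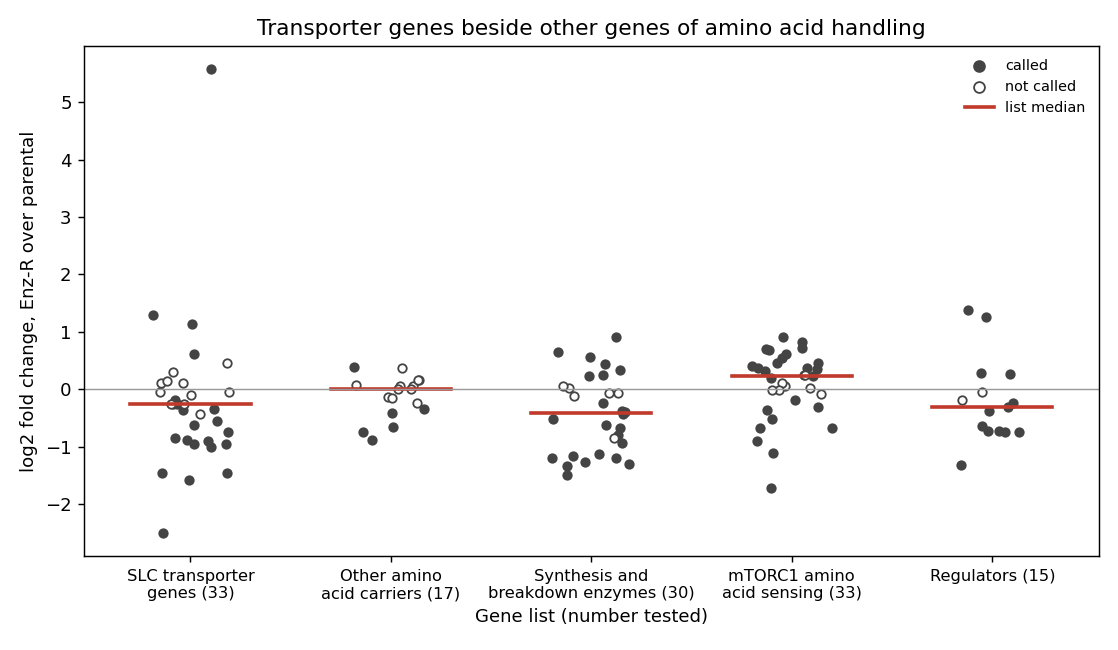
Log2 fold change, Enz-R over parental, of the tested genes of each list, with filled points for genes that passed an adjusted p of 0.05, open points for those that did not, and a red line at the list's median. The medians are -0.26 for the 33 carriers, -0.01 for other carriers, -0.42 for enzymes, 0.22 for mTORC1 amino acid sensing and -0.32 for regulators.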

How the data were processed

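Libraries were, per the labels, sequenced as 150 bp paired-end reads made with a NEBNext Ultra kit from TRIzol RNA. The authors deposited 1 table of read counts by gene, unscaled whole numbers for each library. Per the submitters' processing notes, the tools and build include HISAT2 and GRCh38; the version, the counter used, the annotation behind it and its strand mode were not given in the sources used here. Gene names, positions and exon lengths came from GENCODE 29, which held all 58676 Ensembl identifiers; 889 further loci have no annotation. Replicate pairs differed by more than counting error (chi-square per degree of freedom 3.91 to 8.98).

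The deposited counts of all genes were fitted in R 4.3.3 by edgeR 4.0.16 (TMM scaling, the filterByExpr filter, a quasi-likelihood fit and test without covariate), with Benjamini-Hochberg adjustment over 19029 genes and a threshold of 0.05. SE is the size of the log2 fold change divided by the root of the F statistic. CPM uses TMM-scaled totals, and RPKM divides it by union exon length. Promoter windows came from RefSeq. Alternatives were DESeq2 size factors, DESeq2 1.42.0, limma-voom (limma 3.58.1), no count filter, at least 50 counts in 3 libraries, mitochondrially encoded genes left out, the replicate number as a block, and each library left out. Named genes were a panel of 14 carriers, other called carriers at a 2-fold change, and up to 3 higher and 3 lower genes per companion list with at least 5 CPM. ATF4 and NFE2L2 were named besides. The members and lists were chosen with earlier results of these data known. The sensing list has 34 names, of which 33 were found. Values of some genes the rule covers are not reported here.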

Additional observations from a re-analysis of the deposited data

How the results depend on the processing

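Over the 33 tested carriers and 13 alternatives, 425 log2 fold changes were computed; 415 kept their direction and side of the threshold, 5 no longer passed (SLC3A2 and SLC38A7, given above), 2 newly passed (SLC1A3, with at least 50 counts in 3 libraries, adjusted p = 0.0361, and without Enz-R replicate 2), and 3 changed sign, all of genes that passed in neither analysis. With a library left out, these ran from -0.279 to 0.101 for SLC1A1 and from -0.158 to 0.369 for SLC6A12. Leaving out a library gave 4 to 5 higher and 16 to 18 lower carriers, and the other alternatives 4 to 6 and 18. With at least 50 counts in 3 libraries SLC7A7 was not tested, and SLC1A3 was among the 4 higher carriers. With no count filter the 2 added higher carriers were SLC43A3 (2.54, adjusted p = 0.000365) and SLC6A7 (adjusted p = 0.00560, with parental libraries at 0). Over all genes, leaving out a library gave 5629 to 6133 higher and 5813 to 6157 lower calls. Leave-one-out ranges were 1 to 2 higher genes for the other carriers (2 without parental replicate 1) and 2 to 4 for the regulators (2 without parental replicate 2). For the sensing genes the range was 14 to 16 higher, below the 17 of the main fit. For 96 further genes (the companion genes and SLC7A6OS), 1183 of 1245 values kept direction and call, 32 no longer passed, 7 newly passed and 23, from 11 genes, changed sign, none of them passing in either analysis; the cause was not tested. The leave-one-out log2 fold changes of these 11 ran from -0.0826 to 0.132 for CTNS, -0.245 to 0.0957 for GLS2, -0.157 to 0.169 for MAT2A, -0.0268 to 0.0356 for RPTOR, -0.0545 to 0.0319 for SEC13, -0.00357 to 0.148 for SLC16A10, -0.0381 to 0.0240 for SLC25A13, -0.00824 to 0.396 for SLC25A18, -0.0352 to 0.0289 for SLC25A38, -0.127 to 0.000399 for SLC7A6OS and -0.0576 to 0.0543 for WDR59. With at least 50 counts in 3 libraries the reversed values were 0.0280 for SLC25A13, 0.0271 for WDR59 and 0.0272 for SEC13, and with no count filter -0.0139 for SLC25A38 and -0.00344 for RPTOR.

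Same-numbered libraries did not deviate together (correlations 0.0493, -0.00808 and 0.0112). With 3 libraries per line this cannot show whether they were prepared in pairs, and the labels give only replicate numbers. With the replicate number as a block, 4 carriers were higher and 18 lower, and over all genes 6179 and 6158; CEBPB newly passed (-0.22, adjusted p = 0.0381). The median log2 fold change of all genes was 0.0114, and 0.00472 to 0.0145 under the alternatives. Depth limits the carriers that the count filter left untested.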
